A study of Mus musculus with 10 samples.

Results

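The Trim5 family cluster on mouse chromosome 7 was followed in ATAC-seq data, a measure of open chromatin, from regulatory T (Treg) cells. Its members were the 5 genes Trim5, Trim12a, Trim12c, Trim30a and Trim30d. A region of the deposited count table was taken as theirs when it overlapped the protein-coding span of a member in GRCm38, or when that span was the nearest within 100 kb. This gave 11 of 77076 regions, 3 at Trim5, 3 at Trim12a, 1 at Trim12c, 3 at Trim30a and 1 at Trim30d. The genes were chosen by their accessibility in FntbKO against WT cells, the genotype contrast defined below, so no p-value is given for that difference, and its calls are counted without being read as support.

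All cells were sorted directly, out of spleen and lymph nodes, from mixed bone marrow chimeras, in which marrow from more than 1 source rebuilds the blood. The groups were wild-type (WT) cTreg and WT eTreg cells with 3 libraries each, and Fntb-deficient (FntbKO) cTreg and FntbKO eTreg cells with 2 libraries each. The c and e forms are the central and effector subsets. The Fntb product is a subunit of farnesyltransferase, the enzyme for farnesylation of RAS and other proteins. The labels used here do not give the Fntb allele, any Cre driver, the strain of the marrow donors, the age of the mice or whether replicates were separate animals. P-values therefore measure only the spread between these samples. Total counts per library ran from 5058328 to 15328775.

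TRIM proteins carry a RING domain, a B-box and a coiled coil, and many act as E3 ubiquitin ligases. Primate TRIM5 binds the capsid of incoming retroviruses and also starts innate immune signalling. In the mouse the TRIM5 branch has expanded to Trim5, Trim12a and Trim12c, and beside it lies the Trim30 branch, in which Trim30a is known to dampen NF-κB signalling through TAB2 and TAB3. TRIM12C is known to work with TRAF6 in signalling to interferon and NF-κB. Many genes of this kind are induced by interferon through ISRE motifs in their promoters.

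The promoter windows of the 5 genes are shown because, within each branch, low members and members that were not low share most of their promoter sequence. No region covered the Trim5 or the Trim12a window, so the low signal of these genes was measured outside the sequence shown. They were taken from RefSeq (GRCm38.p6), run from 250 bases before to 50 bases after an annotated start, and lie on the minus strand of chromosome 7. All 5 genes were matched, Trim30a with 2 windows. Capitals mark the match to the ISRE core GAAANNGAAA, searched on both strands and found in each window on the strand opposite to the one printed.
Trim5, chr7:104288057-104288356: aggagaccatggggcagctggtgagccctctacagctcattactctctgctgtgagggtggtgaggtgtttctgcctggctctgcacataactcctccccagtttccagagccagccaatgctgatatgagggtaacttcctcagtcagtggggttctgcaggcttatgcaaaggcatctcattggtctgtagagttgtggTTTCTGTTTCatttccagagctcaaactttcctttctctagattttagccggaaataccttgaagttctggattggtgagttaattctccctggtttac
Trim12a, chr7:104315446-104315745: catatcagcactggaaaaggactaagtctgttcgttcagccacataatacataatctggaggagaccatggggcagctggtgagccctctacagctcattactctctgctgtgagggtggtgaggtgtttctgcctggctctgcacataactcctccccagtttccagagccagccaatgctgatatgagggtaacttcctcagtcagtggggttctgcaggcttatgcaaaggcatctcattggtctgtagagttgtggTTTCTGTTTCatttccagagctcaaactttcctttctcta
Trim12c, chr7:104353300-104353599: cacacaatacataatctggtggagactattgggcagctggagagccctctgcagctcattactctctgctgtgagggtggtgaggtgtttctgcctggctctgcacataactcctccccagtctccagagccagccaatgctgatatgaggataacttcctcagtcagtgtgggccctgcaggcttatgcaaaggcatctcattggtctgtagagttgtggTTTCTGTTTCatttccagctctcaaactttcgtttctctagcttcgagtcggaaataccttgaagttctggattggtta
Trim30a promoter 1, chr7:104465144-104465443: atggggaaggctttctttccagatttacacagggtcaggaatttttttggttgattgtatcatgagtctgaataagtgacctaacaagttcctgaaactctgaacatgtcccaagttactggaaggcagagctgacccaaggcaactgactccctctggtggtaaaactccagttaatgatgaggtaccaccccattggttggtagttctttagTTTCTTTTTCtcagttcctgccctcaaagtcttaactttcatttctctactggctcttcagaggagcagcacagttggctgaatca
Trim30d, chr7:104507800-104508099: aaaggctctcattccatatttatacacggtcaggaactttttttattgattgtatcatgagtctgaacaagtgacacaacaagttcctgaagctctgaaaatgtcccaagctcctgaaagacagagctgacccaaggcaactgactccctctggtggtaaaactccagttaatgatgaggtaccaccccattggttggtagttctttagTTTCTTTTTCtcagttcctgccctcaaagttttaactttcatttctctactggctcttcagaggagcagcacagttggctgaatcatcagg

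Each of these windows, and the other Trim30a window at chr7:104446076-104446375, held 1 ISRE match. Among all 32851 RefSeq promoters of the same length, 1131 (3.44%) held such a match. The GAS core TTCNNNGAA was in none of the 6 windows and in 8.30% of all promoters. A match is a description of the letters and does not show a bound factor. The Trim5 and Trim12a windows were identical over 241 aligned bases. The Trim12a and Trim12c windows were 95.0% identical over their ungapped alignment, with a longest identical run of 71 bases. Trim30a promoter 1 and the Trim30d window were 93.9% identical, with a longest run of 118 bases. Between the 2 branches the longest identical run was 9 bases. How the authors treated reads that match several places is not given in the sources used here, so the split of counts between near-identical copies is uncertain for every region described below.

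The 11 regions lay over 217.5 kb, from 104290615 to 104508118, in coordinates as the table gives them, without a statement of whether they start at 0 or 1. The 3 Trim5 regions (104290615 to 104290995, 104291329 to 104291961 and 104292122 to 104292384) lay upstream, 2361, 3075 and 3868 bp outside the gene span, and none lay on the Trim5 promoter window. At Trim12a, region 1 (104297268 to 104297474) lay 2419 bp beyond the span, and region 2 (104299986 to 104300309) lay within it. Trim12a region 3 (104314661 to 104315361) lay within the span with its centre 484 bp downstream of the start, and ended 85 bp from the promoter window. The Trim12c region (104352873 to 104353686) and the Trim30d region (104507678 to 104508118) each covered the promoter window of their gene. Trim30a region 1 (104440666 to 104440925) lay inside the span, and regions 2 (104445934 to 104446715) and 3 (104464992 to 104465746) each covered a promoter window. Membership of regions outside a span turns on the nearest gene: Trim12a region 1 was 9014 bp from Trim5. Just outside the membership, a Trim30c region lay 3691 bp from Trim30c and 4096 bp from Trim30a.

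Levels below are CPM, read counts relative to the TMM-scaled library total, listed in the order of the replicate numbers, and they compare libraries within a region. Trim5, the namesake of the branch, had its strongest signal in region 2. That region had 24.3, 22.0 and 22.0 CPM in WT cTreg, 14.5, 15.7 and 19.3 in WT eTreg, 1.37 and 4.80 in FntbKO cTreg and 1.60 and 3.84 in FntbKO eTreg. Every FntbKO library was below every WT library. In bulk samples, fewer cells with an open region and less signal per cell cannot be told apart. Trim5 region 1 had 21.8, 11.7 and 16.2 CPM in WT cTreg, 9.76, 12.3 and 10.3 in WT eTreg, 1.64 and 3.24 in FntbKO cTreg and 3.00 and 2.17 in FntbKO eTreg. Again the genotypes did not overlap, while the WT subsets did. Trim5 region 3 had 11.0, 8.26 and 6.97 CPM in WT cTreg, 4.22, 3.29 and 4.07 in WT eTreg, 0.274 and 0.843 in FntbKO cTreg and 1.20 and 0.886 in FntbKO eTreg. Here the WT eTreg libraries were all below the WT cTreg libraries, and the FntbKO eTreg libraries were both above the FntbKO cTreg libraries. The FntbKO values rest on few counts, 2 and 13 in cTreg and 6 and 9 in eTreg.

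Trim12a, a short TRIM5 relative, was low in FntbKO at all 3 of its regions. Region 3, near its start, had 15.8, 14.4 and 16.5 CPM in WT cTreg, 15.2, 14.4 and 19.9 in WT eTreg, 1.37 and 3.11 in FntbKO cTreg and 2.00 and 3.15 in FntbKO eTreg. The subsets overlapped within WT and the genotypes were apart. Region 2 had 1.96, 2.06 and 3.17 CPM in WT cTreg, 2.53, 2.79 and 2.71 in WT eTreg, 0.274 and 0.519 in FntbKO cTreg and 0 and 0.197 in FntbKO eTreg. Region 1 had 1.81, 1.38 and 1.37 CPM in WT cTreg, 0.964, 1.49 and 3.56 in WT eTreg, 0 and 0.324 in FntbKO cTreg and 0 and 0.0984 in FntbKO eTreg. These 2 regions were faint even in WT cells. In FntbKO eTreg, region 1 held 1 count in all against 44 in WT eTreg, or 3.64% of the WT level after scaling, with an exact 95% interval of 0.09% to 21.3% that covers counting error only. Region 2 held 2 counts against 65, or 4.92% with an interval of 0.584% to 18.5%. Both intervals take each count as independent, which was not tested, and 66.7% to 79.2% of counts per library were even. If counts are not independent, the intervals are too narrow.

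The Trim12c region, on the promoter most like those of Trim5 and Trim12a, was strong in every library. It had 109.9, 103.1 and 105.9 CPM in WT cTreg, 106.5, 98.9 and 109.1 in WT eTreg, 107.0 and 87.1 in FntbKO cTreg and 107.2 and 89.0 in FntbKO eTreg. FntbKO replicate 1 lay within the WT range in both subsets and replicate 2 below it.

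Trim30a had signal in both genotypes at all of its regions. Region 2 had 80.7, 81.2 and 77.3 CPM in WT cTreg, 82.5, 69.9 and 96.7 in WT eTreg, 71.7 and 67.4 in FntbKO cTreg and 76.5 and 77.8 in FntbKO eTreg. In cTreg both FntbKO libraries were below the WT libraries by a small margin, and in eTreg they lay within the WT range. Region 3, on the other promoter window, ran from 22.1 to 27.8 CPM over all WT libraries and from 23.5 to 26.6 over the FntbKO libraries. Region 1, inside the span, was faint, with 1.45 to 5.31 CPM in WT and 2.17 to 4.01 in FntbKO. The Trim30d region, over a promoter 93.9% identical to the first Trim30a window, had 8.66, 6.02 and 5.39 CPM in WT cTreg and 9.15, 6.77 and 8.14 in WT eTreg. It had 0.547 and 1.30 in FntbKO cTreg and 0.801 and 1.97 in FntbKO eTreg, so the highest FntbKO library was well below the lowest WT library.

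**Figure D1:**
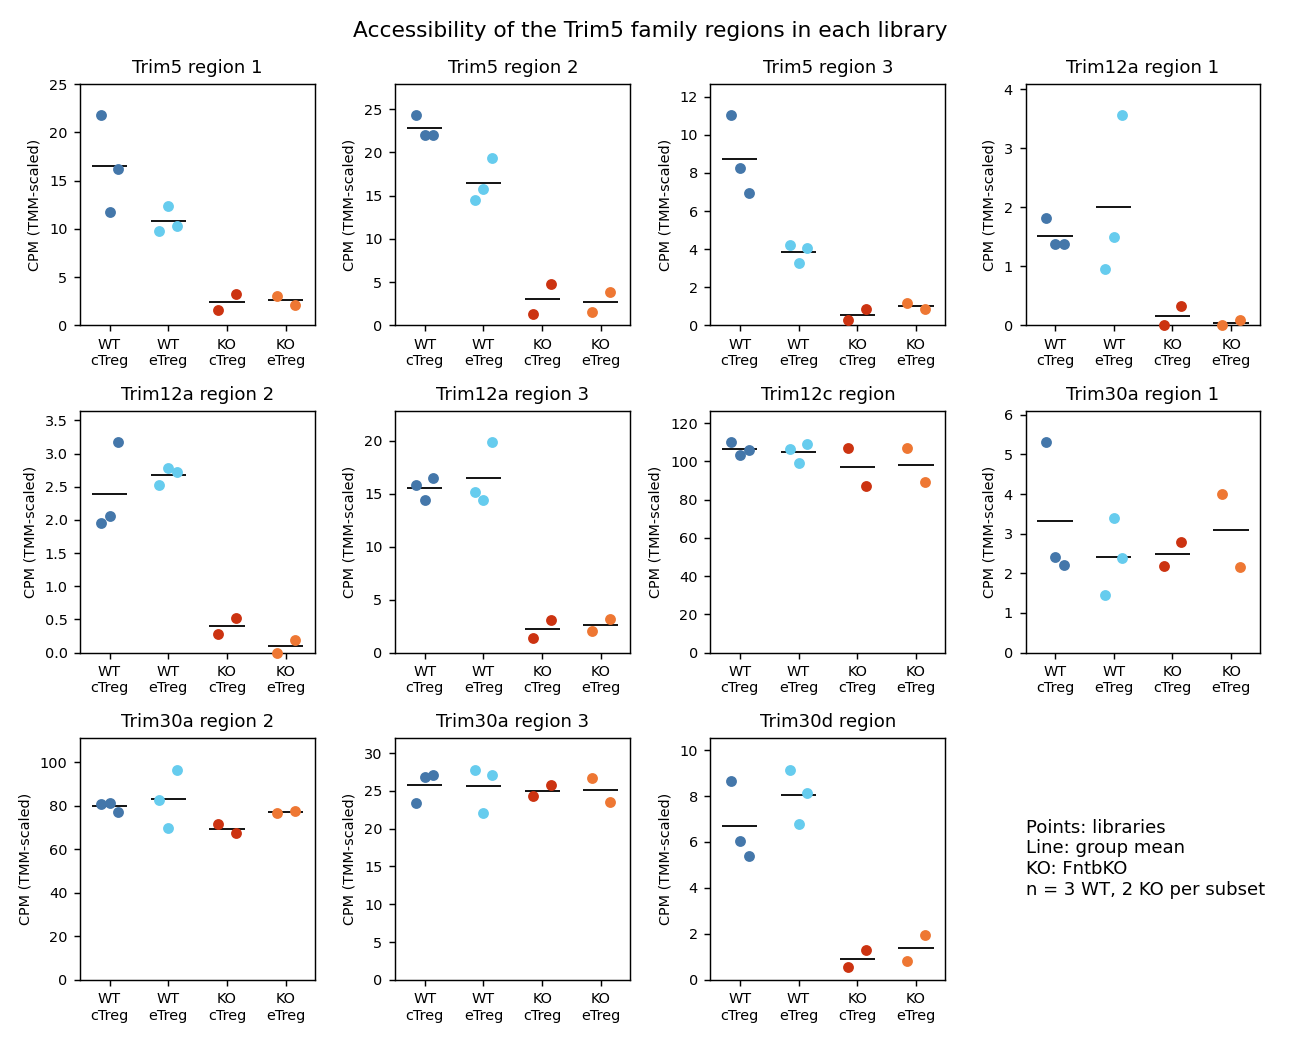
Accessibility of the 11 regions in TMM-scaled CPM on linear axes that start at 0, with points for libraries and lines for group means. All 4 FntbKO libraries lie below all 6 WT libraries at the Trim5, Trim12a and Trim30d regions, while the genotypes overlap at Trim12c and Trim30a.

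Summed over its regions, Trim5 had 48.1 ± 7.99 CPM (SD, n = 3) in WT cTreg, 31.2 ± 2.67 (n = 3) in WT eTreg, 6.08 ± 3.96 (n = 2) in FntbKO cTreg and 6.35 ± 0.762 (n = 2) in FntbKO eTreg. Trim12a had 19.5 ± 1.57 CPM in WT cTreg, 21.2 ± 4.29 in WT eTreg, 2.80 ± 1.64 in FntbKO cTreg and 2.72 ± 1.02 in FntbKO eTreg, with the same numbers of libraries. Trim30a had 108.8 ± 2.01, 111.2 ± 15.4, 97.1 ± 1.59 and 105.4 ± 2.59 CPM in the same order. Over all member regions the totals were 289.4 ± 13.5, 276.4 ± 26.1, 203.9 ± 9.47 and 213.9 ± 12.9 CPM. Most of what FntbKO cells kept thus lay at Trim12c and Trim30a.

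As log2 fold changes of FntbKO over WT with the SE of the edgeR fit, Trim5 region 1 differed by -2.67 (SE 0.31) in cTreg and -2.12 (SE 0.34) in eTreg. Trim5 region 2 differed by -2.73 (SE 0.32) and -2.46 (SE 0.35), and region 3 by -3.76 (SE 0.45) and -1.92 (SE 0.46). Trim12a region 3 differed by -2.68 (SE 0.29) and -2.59 (SE 0.30), much like Trim5 region 2. Trim12a regions 1 and 2 differed by -2.79 (SE 0.89) and -2.47 (SE 0.63) in cTreg, and for eTreg the count ratios above stand in place of a fold. The Trim30d region differed by -2.70 (SE 0.42) and -2.39 (SE 0.41). At Trim12c the difference was -0.14 (SE 0.11) in cTreg and -0.10 (SE 0.11) in eTreg. At Trim30a it was -0.38 (SE 0.46) and 0.28 (SE 0.48) in region 1, -0.20 (SE 0.11) and -0.10 (SE 0.11) in region 2 and -0.04 (SE 0.15) in both subsets in region 3. The sizes at the low regions rest partly on single FntbKO libraries. Without FntbKO cTreg 2 the cTreg differences were -3.33, -4.04 and -4.92 at Trim5 regions 1, 2 and 3, -3.08 and -3.50 at Trim12a regions 2 and 3, and -3.57 at Trim30d. Trim12a region 1 was then left with 0 counts in FntbKO cTreg, and it stood at -2.18 without FntbKO cTreg 1. Without FntbKO eTreg 2 the eTreg differences were -3.34 at Trim5 region 2 and -3.30 at Trim30d.

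A region was called at an edgeR adjusted p under 0.05 over the 76216 regions tested, and all 11 member regions passed the filter on low counts. In cTreg 5 of 11 were called, all lower in FntbKO, against 0.568% of all regions called in either direction. In eTreg 5 of 11 were called, all lower, against 0.35% of all regions. The calls shared by both subsets were those of Trim5 regions 1 and 2, Trim12a region 3 and Trim30d. Trim5 region 3 was called in cTreg alone and Trim12a region 2 in eTreg alone; the difference between the subsets is tested below. Without FntbKO eTreg 1, or without FntbKO eTreg 2, 2 member regions were called in eTreg. The median over the members was -2.67 in cTreg and -2.12 in eTreg, and over all tested regions -0.006 and -0.001. The eTreg median was the same with the count ratios of Trim12a regions 1 and 2 in place of their fits. All of these values come from the contrast that chose the genes, so nothing is read from the counts.

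By size, 6 of 11 member regions were at least 4-fold lower in FntbKO in both subsets, as were 0.14% of all regions. These 107 regions lay beside 83 genes, and chromosome 7 held 16 of them. In 7 of 11 member regions all 4 FntbKO libraries were below all 6 WT libraries, as in 2.09% of all regions. All 4 were above all 6 WT libraries in 0 of 11 member regions and in 1523 of the 76216 tested. The 4 other member regions, of Trim12c and Trim30a, lie between the low ones: going up the chromosome, 6 low regions were followed by 4 that were not low and by the low Trim30d region.

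**Figure D2:**
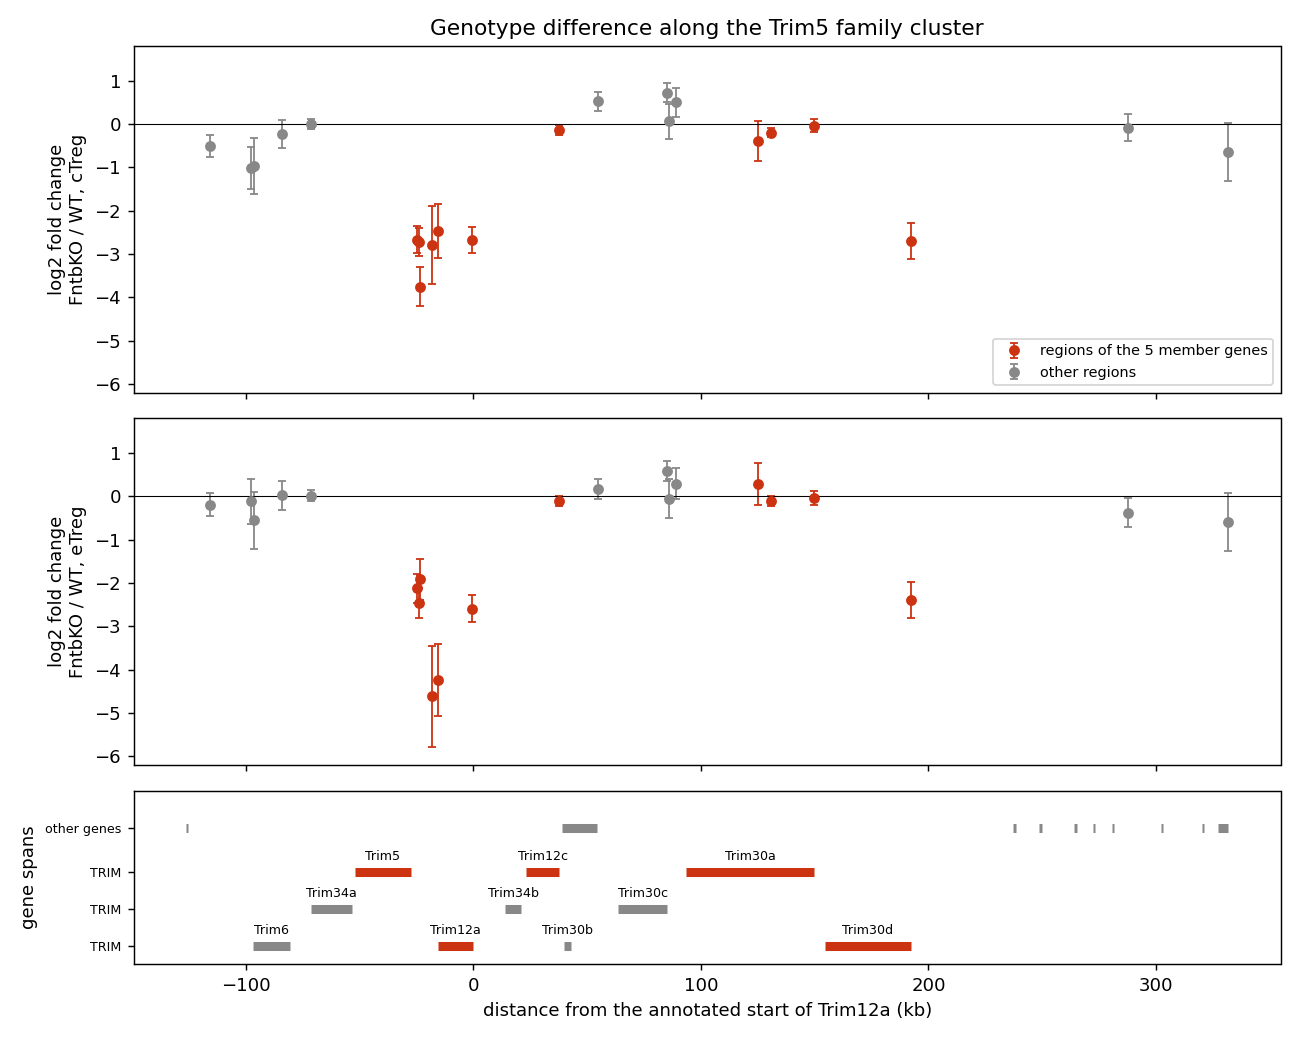
Log2 fold change of FntbKO over WT (points, with SE bars) in cTreg and in eTreg against distance from the annotated Trim12a start in kb, above the gene spans. The low regions lie at Trim5, Trim12a and Trim30d, and regions of Trim12c, Trim30c and Trim30a between them lie near 0 or above it. At Trim12a regions 1 and 2 the eTreg points are fits to 1 and 2 FntbKO counts.

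The 4 non-member regions inside the stretch, 1 near Gm38525 and 3 near Trim30c, had no call in any comparison, with 2 at an unadjusted edgeR p under 0.05 for genotype in cTreg and 1 in eTreg, and no call by DESeq2. Over all 76216 tested regions, edgeR gave 9474 at that unadjusted level for genotype in cTreg and 9336 in eTreg. The Trim30c region over its promoter window (104400552 to 104401050) had a difference of the opposite sign to the low members, short of the threshold. It had 12.9, 22.4 and 19.0 CPM in WT cTreg, 12.1, 21.9 and 18.5 in WT eTreg, 33.4 and 26.6 in FntbKO cTreg and 28.9 and 24.1 in FntbKO eTreg. All FntbKO libraries were above all WT libraries, with a log2 fold of 0.72 (SE 0.22) in cTreg, where its edgeR adjusted p was 0.148, and of 0.58 (SE 0.23) in eTreg. Separation in that direction was found in 1523 of the 76216 tested regions. Of the 15 nearest regions on each side, 0 of 30 were called for genotype in either subset by edgeR or DESeq2, with 3 at an unadjusted edgeR p under 0.05 in cTreg and 6 in eTreg. In 2 of these 30, near Olfr243 and Apbb1, all FntbKO libraries were below the WT libraries, as in 2.09% of all regions. The region of Trim34a, the closest neighbour on the left, had 54.6 to 70.9 CPM in FntbKO and 57.5 to 67.5 in WT.

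The FntbKO libraries differed among themselves in how much signal they kept at the 7 low regions. As a percent of the WT mean of the same subset, FntbKO cTreg 1 had a median of 8.18% with a range of 0% to 11.4%, and FntbKO cTreg 2 a median of 20.0% with a range of 9.63% to 21.6%. FntbKO eTreg 1 had a median of 9.99% with a range of 0% to 31.2%, and FntbKO eTreg 2 a median of 20.0% with a range of 4.90% to 24.5%. Replicate 2 was above replicate 1 in 7 of 7 regions in cTreg and in 5 of 7 in eTreg. The replicates also differed in depth, with 7450914 and 15328775 counts in FntbKO cTreg and 5058328 and 10126587 in FntbKO eTreg; the part of depth was not tested. At the 4 other member regions the FntbKO libraries kept 66.1% to 100.6%, 82.0% to 99.8%, 92.2% to 166.8% and 84.9% to 93.7% in the same order. For comparison, the region at the start of Fntb, the gene named in the labels, kept 39.7%, 33.7%, 38.8% and 25.0%. By median, the replicate with more signal left at the low Trim regions was the one with less left at Fntb in both subsets.

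**Figure D3:**
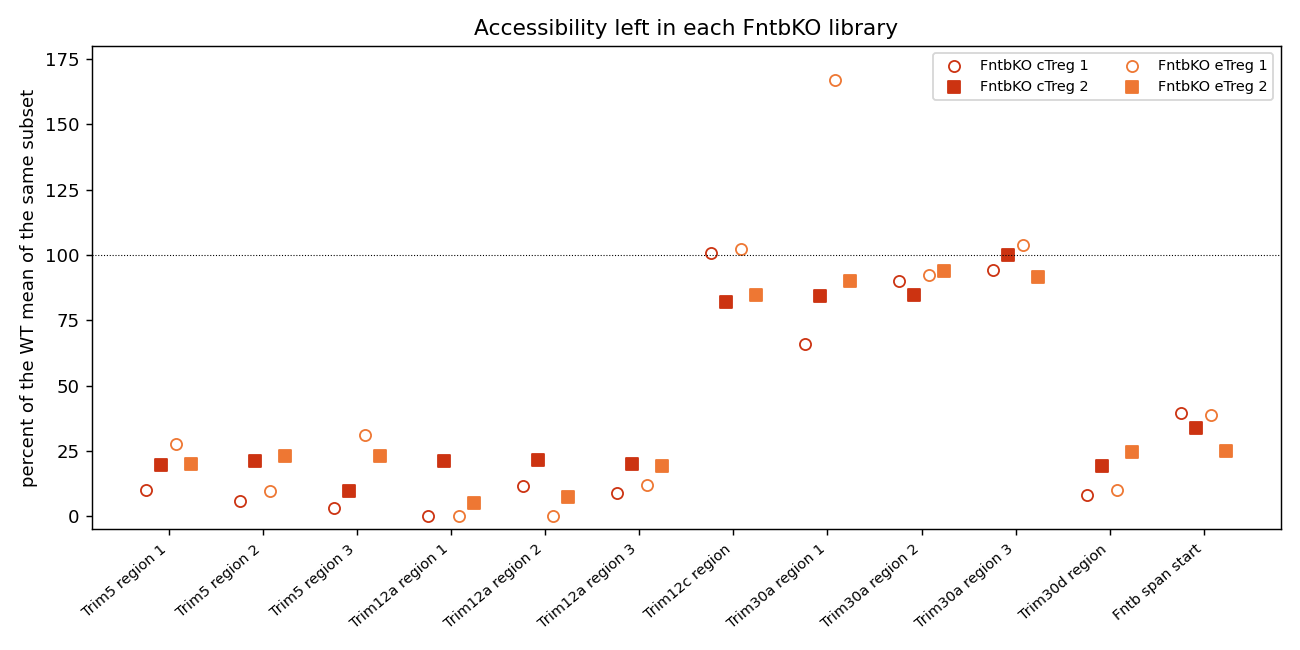
Signal of each FntbKO library as a percent of the WT mean of the same subset, at the 11 regions and at the start of Fntb, with open circles for replicate 1 and squares for replicate 2. The 7 low regions lie between 0% and 31.2%, below the Fntb value of the same library, and the other member regions lie from 66.1% upwards.

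The subset contrasts, which did not choose the genes, ask whether the cluster changes between central and effector Treg cells. They share their libraries with the genotype contrasts that did, so they are not wholly independent of the choice. In WT cells 1 of 11 member regions was called, against 3.44% of all regions. This was Trim5 region 3, which was lower in eTreg by a log2 fold of -1.18 (SE 0.32, edgeR adjusted p = 0.0365), with no overlap between the 3 WT eTreg and 3 WT cTreg libraries. Over the alternatives its adjusted p ran from 0.0164 to 0.191, and the call was lost without WT cTreg 1, WT cTreg 3, WT eTreg 1, WT eTreg 2 or WT eTreg 3. The other Trim5 regions had folds of the same sign that did not pass, -0.61 (SE 0.24, edgeR adjusted p = 0.156) in region 1 and -0.47 (SE 0.24, edgeR adjusted p = 0.320) in region 2. In region 2 the WT subsets did not overlap, and in region 1 they did.

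The summed Trim5 signal differed between WT eTreg and WT cTreg by -16.9 CPM, with p = 0.1 in a two-sided exact permutation test, the smallest that 20 arrangements allow, and 0.6 after adjustment over 6 totals. The exact permutation p of the other 4 genes and of the whole cluster was 0.3 to 0.8 (adjusted 0.8). Outside Trim5, the WT subset folds ran from -0.44 (SE 0.42) at Trim30a region 1 to 0.35 (SE 0.62) at Trim12a region 1. The best-covered regions had the narrowest estimates, at -0.02 (SE 0.10) for Trim12c and 0.05 (SE 0.10) for Trim30a region 2. The median over the members was -0.01, as over all tested regions.

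In FntbKO cells 0 of 11 member regions were called between the subsets, against 1.36% of all regions, and edgeR and DESeq2 each gave 0 of 11 at an unadjusted p under 0.05. Over the series, 11624 of 76216 tested regions were at that unadjusted level with edgeR and 9483 with DESeq2. The smallest edgeR adjusted p was 0.491, at Trim12a region 2, with a fold of -1.62 (SE 1.04). At Trim5 region 3 the fold was 0.66 (SE 0.59, edgeR adjusted p = 0.655). Few counts were left at the low regions, and the SE there reached 1.55, at Trim12a region 1.

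The interaction of genotype and subset called 0 of 11 member regions and 0% of all regions. It is the difference between the 2 genotype folds, which chose the genes, so its p-values are not independent of that choice. It gave 3099 regions of the series at an unadjusted p under 0.05 with edgeR and 2133 with DESeq2, which also called 0. Of the members, 1 was at an unadjusted p under 0.05 with each tool. This was Trim5 region 3, whose genotype fold was larger in cTreg than in eTreg, with an interaction of 1.84 on the log2 scale (SE 0.68, edgeR unadjusted p = 0.0115). Its edgeR adjusted p was 0.9999. The other interactions ran from -1.82 (SE 1.68) at Trim12a region 1 to 0.67 (SE 0.67) at Trim30a region 1.

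**Figure D4:**
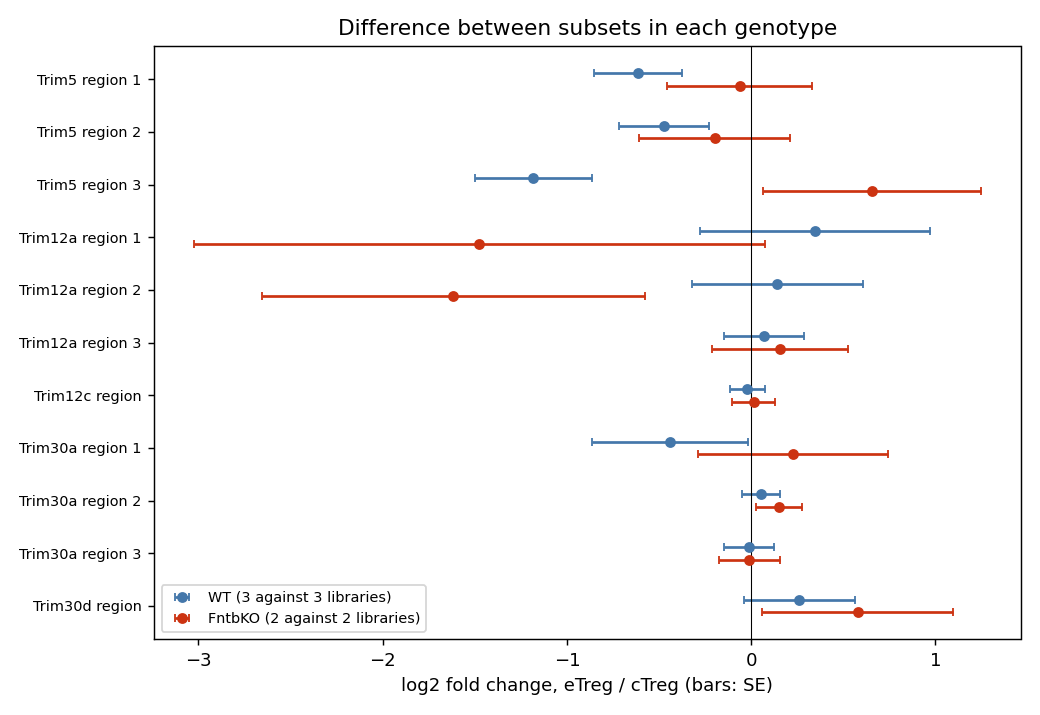
Log2 fold change of eTreg over cTreg at each member region in WT and in FntbKO (points, with SE bars). The WT folds of the 3 Trim5 regions lie below 0, with Trim5 region 3 at -1.18, and the FntbKO bars are widest at Trim12a regions 1 and 2.

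Regions with a like pattern over the 10 libraries were ranked by Pearson r of log2-CPM with Trim12a region 3, among 38095 regions of at least median signal and more than 1 Mb away. The first 5 lay near Tcte2 on chromosome 17 (r = 0.979), Slc39a11 on chromosome 11 (3 regions, r = 0.979, 0.976 and 0.973) and Col6a4 on chromosome 9 (r = 0.976). These r describe libraries that share genotype and depth and carry no test. The Tcte2 region had 32.7 to 40.4 CPM in WT and 14.8 to 22.4 in FntbKO, a smaller difference than at Trim12a. Within the cluster, r with Trim12a region 3 was 0.917 to 0.980 at Trim5, 0.947 and 0.962 at the other Trim12a regions and 0.981 at Trim30d. It was 0.369 at Trim12c and -0.04 to 0.554 at Trim30a.

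Of 12 genes for signalling partners of TRIM5 and TRIM30, 11 had regions, 49 of them tested. In WT cells 1 rose in eTreg and 1 fell, against 3.44% of all regions called in either direction, so the count is near that share. A region near Tab2, an adaptor that Trim30a acts on, rose by 1.24 (SE 0.22, edgeR adjusted p = 0.00288), from 6.75 ± 1.10 to 15.8 ± 0.907 CPM (SD, n = 3 each). A region near Map3k7, which encodes the kinase TAK1, fell by 1.02 (SE 0.25, edgeR adjusted p = 0.0235), a call lost without WT cTreg 1, WT cTreg 3, WT eTreg 1 or WT eTreg 3. The Tab2 call was kept under every alternative. Between the FntbKO subsets 0 were called by edgeR or DESeq2, with 8 at an unadjusted edgeR p under 0.05, and between genotypes in cTreg 0, with 4. The shares of all regions called there were 1.36% and 0.568%. At the unadjusted level edgeR gave 11624 and 9474 of all 76216 tested regions. Without FntbKO cTreg 2 there was 1 call between the FntbKO subsets. Between genotypes in eTreg 1 was called, against 0.35% of all regions, another Map3k7 region that rose by 1.38 in FntbKO (SE 0.32, edgeR adjusted p = 0.0481). That call was lost with 2 other scalings and without WT cTreg 3, WT eTreg 1, WT eTreg 3 or either FntbKO eTreg library.

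Of 12 interferon signalling genes, 11 had regions, 98 of them tested. In WT cells 3 rose in eTreg and 0 fell, near the 3.44% of all regions called. These were a region near Ifngr1, a chain of the interferon-γ receptor, by 0.96 (SE 0.21, edgeR adjusted p = 0.011), and 2 near the transcription factor gene Irf1, by 0.89 and 0.55. The Ifngr1 call was lost without WT cTreg 3 or WT eTreg 1, and both Irf1 calls without WT cTreg 3 or WT eTreg 3. The larger Irf1 call was also lost without WT cTreg 1 or WT eTreg 2, and the smaller without WT eTreg 1. Between genotypes 1 region rose, against 0.568% of all regions called in cTreg, an Ifngr1 region in FntbKO cTreg, by 0.98 (SE 0.23, edgeR adjusted p = 0.0456). That call was lost with total counts as scaling, and without WT cTreg 1, 2 or 3, WT eTreg 1 or 3, or either FntbKO cTreg library. It was also lost without WT cTreg 2 and FntbKO cTreg 1 together. In eTreg edgeR called 0, with 14 at an unadjusted p under 0.05, and DESeq2 called 1, as edgeR did without WT cTreg 2. For this contrast 9336 of all 76216 tested regions were at that unadjusted level with edgeR.

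The other TRIM genes were counted in the same way. On chromosome 7, 9 of 11 had regions, 14 in all, and 0 were called in any comparison by edgeR or DESeq2, with 3 at an unadjusted edgeR p under 0.05 for genotype in each subset; Trim30b and Trim34b had no region. Elsewhere 40 of 54 had regions, 167 in all, with 0 called between genotypes by edgeR. At an unadjusted p under 0.05 there were 28 in cTreg and 23 in eTreg, and DESeq2 called 1 in cTreg and 0 in eTreg. Over all 76216 tested regions, 9474 in cTreg and 9336 in eTreg were at that unadjusted level with edgeR. In WT cells 3 of these rose in eTreg and 3 fell, near the 3.44% of all regions called, with the largest fall near Trim25, an E3 ligase of the RIG-I pathway, at -1.38 (SE 0.24, edgeR adjusted p = 0.00241). In FntbKO cells 2 fell, near the 1.36% of all regions called, both near Trim25, and neither call was kept without FntbKO cTreg 1 or either FntbKO eTreg library. Over the genes elsewhere, the calls between WT subsets numbered 2 without WT cTreg 1 or WT eTreg 1 and 1 without WT cTreg 3 or WT eTreg 3. Without FntbKO cTreg 2 there were 7 between the FntbKO subsets and 4 for genotype in cTreg, and without WT cTreg 1 or WT eTreg 1 there was 1 for genotype in cTreg. Between the FntbKO subsets 1 was called without WT cTreg 3 or WT eTreg 1.

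The main Foxp3 region, at the gene that defines Treg cells, had 26.0 to 35.1 CPM over all libraries. Among marker lists of other cell types, the summed signal of B cell markers was lower in FntbKO, at 49.0 to 51.0 CPM in cTreg against 61.7 to 73.1 in WT, and 54.9 to 63.1 in eTreg against 67.3 to 75.0. Regions were found at 3 genes of this list, and Cd79b and Ms4a1 had none. Of 14 B cell marker regions edgeR called 0 between genotypes, with 3 at an unadjusted p under 0.05 in cTreg and 1 in eTreg, and DESeq2 called 2 in cTreg. Over all 76216 tested regions edgeR gave 9474 and 9336 at that unadjusted level. The part of these cells in the low Trim regions was not tested. Summed myeloid marker signal was 262.6 to 284.1 CPM in FntbKO cTreg against 282.2 to 329.3 in WT cTreg, with no region at Csf1r or Lyz2. For eTreg it was 311.9 to 327.8 CPM in FntbKO against 320.6 to 354.8 in WT. The ranges overlapped in both subsets. The summed Treg marker signal was higher in FntbKO, at 1472 to 1509 CPM in cTreg against 1294 to 1467 in WT, and 1492 to 1525 in eTreg against 1404 to 1436. Single regions did not all follow the sum. Of 106 Treg marker regions edgeR called 1 for genotype in cTreg, against 0.568% of all regions, and 0 in eTreg. The called region, near Ctla4, was lower in FntbKO cTreg, with a log2 fold of -1.87 (SE 0.44, edgeR adjusted p = 0.0442). DESeq2 called 1 in each subset. Erythroid markers had 54.3 to 55.6 CPM in FntbKO cTreg against 44.6 to 50.6 in WT cTreg. Their eTreg ranges overlapped, at 40.87 to 50.09 CPM in FntbKO against 35.96 to 43.25 in WT. In eTreg, dendritic markers had 234.0 to 246.6 CPM in FntbKO against 252.7 to 278.8 in WT, and CD8 T or NK markers 254.3 to 258.2 against 265.0 to 292.9. In cTreg the CD8 T or NK markers had 294.9 to 299.7 CPM in FntbKO against 301.5 to 311.6 in WT. Dendritic marker ranges overlapped there, at 212.4 to 239.8 CPM in FntbKO against 230.8 to 283.9 in WT. The summed signal of the interferon signalling genes was higher in FntbKO, at 1808 to 1820 CPM in cTreg against 1632 to 1746 in WT, and 1730 to 1822 in eTreg against 1651 to 1701. These list sums were not tested, and neither was the part of these shifts in the low Trim regions. On the first principal component, with 32.6% of the variance, scores in WT cTreg were -56.7, 9.02 and -38.1, next to scores of -155.3 and -67.1 for FntbKO cTreg. Scores in WT eTreg were 83.5, 65.0 and 130.2, next to 0.691 and 28.7 for FntbKO eTreg. Leaving out WT cTreg 2 along with FntbKO cTreg 1 was an alternative chosen after seeing the data. It leaves FntbKO cTreg 2 alone in its group. The WT subset fold of Trim5 region 1 was then -0.80. No share of all regions called is given for that fit, so nothing is read from its calls.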

How the data were processed

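The deposited table held raw read counts, without normalization, for regions over 10 ATAC-seq libraries. Per the submitters' processing notes the authors used MACS2 2.1.1, Picard 2.9.4, Trimmomatic 0.36, bedtools and SAMtools, and named the builds GRCm38 and mm10. The aligner, the merging of regions and the treatment of reads matching several places are not given in the sources used here. Between 66.7% and 79.2% of counts per library were even.

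Regions were assigned with RefSeq GRCm38.p6 gene spans. Counts were filtered with filterByExpr, given TMM factors and fitted in R 4.3.3 with edgeR 4.0.16 (robust quasi-likelihood), with 1 mean per group (6 residual degrees of freedom) and Benjamini-Hochberg adjustment over 76216 regions. The script was tested on simulated data. Alternatives were DESeq2 1.42.0, other scalings and filters, halved counts, a replicate block, span overlap only and leaving out libraries. Low counts carry exact intervals for counting error only, with each count taken as independent. Replicate numbers in the labels were not taken as pairing, and whether they mark pairs is not settled.

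The members and lists were chosen with earlier results of these data known. Named were all member regions, 15 regions on each side, regions between, up to 4 called regions per list and comparison (or the 1 with the smallest p), and 5 regions by likeness. Not all that this allowed is printed. Protein sequences, region sequences and a genome were not used here.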

Additional observations from a re-analysis of the deposited data

Results flagged for a closer look

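At Trim5 region 3 the subset difference had opposite signs in the 2 genotypes. All 3 WT eTreg libraries (3.29 to 4.22 CPM) were below all 3 WT cTreg libraries (6.97 to 11.0), while both FntbKO eTreg libraries (0.886 and 1.20) were above both FntbKO cTreg libraries (0.274 and 0.843). In replicate order the FntbKO libraries held 6 and 9 counts in eTreg and 2 and 13 in cTreg. How many of all regions separate in this way was not counted. The difference itself, the interaction of genotype and subset, was 1.84 on the log2 scale (SE 0.68). Its unadjusted p of 0.0115 in edgeR did not pass after adjustment over all regions (edgeR adjusted p = 0.9999). The interaction is built from the 2 genotype folds that chose the genes, so its p is not independent of that choice. The FntbKO subset fold of 0.66 (SE 0.59) did not pass either (edgeR adjusted p = 0.655), and the WT call was lost without WT cTreg 1, WT cTreg 3, WT eTreg 1, WT eTreg 2 or WT eTreg 3.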

How the results depend on the processing

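Member regions called between the WT subsets numbered 0 to 1 when single libraries were left out, 2 without WT cTreg 2 and FntbKO cTreg 1 together, where Trim5 region 1 also passed at -0.80, and 0 over regions inside member spans only. For genotype in cTreg they numbered 4 to 5 over single left-out libraries and 2 inside spans only. For genotype in eTreg they numbered 2 to 6 over single left-out libraries and 3 inside spans only. Inside spans only, the summed signal of all member regions was 239.8 CPM in WT cTreg and 243.2 in WT eTreg, since the 3 Trim5 regions and Trim12a region 1 drop out by construction. No share of all regions called is given for the alternatives, so the counts of calls describe the member regions only. In the FntbKO subset contrast and the interaction, 0 were called under every alternative.

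With a replicate block, 1 member region was called between the WT subsets, 0 between the FntbKO subsets, 5 for genotype in cTreg, 6 in eTreg and 0 for the interaction. Deviations of same-numbered libraries correlated at 0.165, 0.083 and 0.032 in WT, and those of differently numbered libraries at -0.130 to 0.044. Only WT eTreg 3 correlated better with another number, at 0.044 with WT cTreg 2 against 0.032 with WT cTreg 3. In FntbKO the values were 0.180 for the same number and -0.180 otherwise, equal in size because each group has 2 libraries. Whether libraries of the same number are pairs is thus not settled, and the main tests treat them as unpaired.

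Of 980 member folds under alternatives, 61 had the opposite sign to the reported fold, 28 of them with a FntbKO library left out, 19 with a WT library left out and 14 under other settings; the cause was not tested. None of the 61 was called as reported, and none was a genotype fold of a low region, though single FntbKO libraries moved the sizes of those. Over single left-out libraries the FntbKO subset fold ran from -0.38 to 0.60 at Trim5 region 1, from -1.09 to 1.12 at Trim5 region 2, from -3.88 to 2.32 at Trim12a region 1, from -0.28 to 0.98 at Trim12a region 3, from -0.13 to 0.16 at Trim12c and from -0.33 to 1.45 at Trim30d. The interaction ran from -0.62 to 1.59 at Trim5 region 2, from -4.22 to 1.97 at Trim12a region 1, from -0.34 to 0.91 at Trim12a region 3, from -0.11 to 0.18 at Trim12c and from -0.59 to 1.19 at Trim30d. Positive ends at Trim5 and at Trim12a region 1 came without FntbKO cTreg 2, and negative ends at Trim12a region 3 and Trim30d without FntbKO eTreg 2. Few FntbKO counts limit any estimate at Trim12a regions 1 and 2. Counts were also low at Trim5 region 3, with 2 and 13 in FntbKO cTreg and 6 and 9 in FntbKO eTreg. The Trim30d region held 4 and 20 in each FntbKO subset.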
